A study of Mus musculus with 11 samples.

Results

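The interaction between environment and CD8+ T cell subset was examined for every miRNA row of the deposited table, and asks whether the difference between virtual memory and naive cells was the same in clean and in dirty mice. It was taken as the difference VM minus TN in dirty mice less the difference VM minus TN in clean mice, on the log2 scale. A value of 0 means equal differences, a positive value means that VM cells stood higher relative to TN cells in dirty than in clean mice, and a negative value the opposite. Of 2128 deposited rows, each pairing a mature miRNA with a hairpin, 2008 remained after identical rows of the same miRNA were kept once, and 545 rows of 524 miRNAs had enough counts to test.

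The 11 libraries were small RNA libraries of mouse splenic CD8+ T cells, sorted as CD4- CD8+ CD49dlo GFP+ in all 4 groups. CD44lo cells formed the stamped TN (true naive) groups and CD44hi cells the stamped VM (virtual memory) groups, and mice were labelled clean or dirty. The labels used here define neither clean, dirty nor stamped, and give no strain or age. There were 3 libraries in each group except Clean_TN, which had replicates 2 and 3. No label ties a replicate to its own animal, and p-values therefore measure only the spread between these libraries, which may be technical. Total estimated counts lay between 2614396 and 16312004 per library, and 3 counts corresponded to 0.180 to 1.23 CPM (counts-per-million units on scaled totals), the level that a count of 0 allows, for counting error only. Among miRNAs of lymphocytes miR-150-5p stood between 66249 and 134280 CPM in the 11 libraries, and miR-142a-3p between 1388 and 1967.

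A miRNA is a short RNA cut from a hairpin precursor. One strand, or arm, of the hairpin is loaded into Argonaute and pairs with messenger RNAs through its seed, bases 2 to 8, which as a rule lowers their translation and stability. Naive T cells and memory T cells differ in miRNAs that restrain or accompany activation: the let-7 family holds naive CD8+ T cells in quiescence, miR-150 represses Myb, and miR-155, miR-21 and the cluster of miR-183, miR-96 and miR-182 accompany activation. VM cells carry memory markers without having met foreign antigen.

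The rows described most closely are the 12 with the smallest p in each direction among rows with a mean of 10 CPM or more. Their mature sequences show which seeds lie behind the contrast. They come from RefSeq (tables built on GRCm38, mouse), run 5′ to 3′, and have the seed in capitals. For a positive interaction they were, apart from miR-378a-5p:
miR-361-3p: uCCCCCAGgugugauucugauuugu
miR-1291: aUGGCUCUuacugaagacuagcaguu
miR-5121: aGCUUGUGaugagacaucucc
miR-221-3p: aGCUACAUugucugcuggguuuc
miR-30c-5p: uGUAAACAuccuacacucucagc
miR-15b-3p: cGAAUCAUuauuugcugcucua
miR-186-5p: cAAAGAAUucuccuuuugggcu
miR-339-3p: uGAGCGCCucggcgacagagccg
miR-339-5p: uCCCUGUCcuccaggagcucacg
let-7f-2-3p: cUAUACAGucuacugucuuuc
miR-16-2-3p: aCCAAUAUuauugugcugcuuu

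For a negative interaction they were, apart from miR-151-5p and miR-151-3p:
miR-148a-3p: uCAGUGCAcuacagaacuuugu
miR-15a-5p: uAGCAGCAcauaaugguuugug
miR-183-5p: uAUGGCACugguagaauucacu
miR-182-5p: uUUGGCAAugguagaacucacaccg
let-7f-5p: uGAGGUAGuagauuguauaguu
miR-181a-2-3p: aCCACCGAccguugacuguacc
miR-10a-5p: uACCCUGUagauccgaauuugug
miR-664-5p: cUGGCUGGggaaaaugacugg
miR-1943-5p: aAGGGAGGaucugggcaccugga
Among the sequences shown no seed was shared between the 2 lists, and within them only the pair of let-7f-5p rows, from the hairpins let-7f-1 and let-7f-2, had the same mature sequence, so those rows share reads.

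One library stood apart from its group. Dirty_TN replicate 3 was closer to Clean_TN replicate 2 than any other 2 of the 11 libraries were to each other, with a median absolute log2 difference of 0.25 over the tested rows, where libraries of 1 group differed by 0.30 to 0.55. In 374 of the 545 rows (68.6%) it lay nearer the Clean_TN mean than the mean of the other Dirty_TN libraries, and so it did in 22 of the 24 rows listed above. Those 24 were chosen by a contrast that includes both TN groups, so their share adds no independent evidence. The same share was not computed for Dirty_TN replicates 1 and 2. Dirty_TN replicate 3 had 825 rows with a count against 723 and 710 in replicates 1 and 2, and a scaling factor of 1.14 against 0.83 and 0.97. Rows and list medians that the results turn on are therefore given with all 11 libraries and without that library, which leaves 2 Dirty_TN libraries. The cause of its position was not tested.

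With all 11 libraries no row passed an adjusted p of 0.05 (edgeR quasi-likelihood test, 0% of 545 rows called), and the smallest adjusted p was 0.0935, for miR-361-3p in the positive and miR-148a-3p in the negative direction. At an unadjusted p under 0.05 there were 93 rows (17.1%), 38 with a positive interaction (6.97%) and 55 with a negative one (10.1%). On the same libraries DESeq2 called 41 rows, limma-voom 0, and limma-voom with sample quality weights 54. Without Dirty_TN replicate 3, 73 of 504 rows passed in edgeR (14.5%), 39 with a positive interaction (7.74%) and 34 with a negative one (6.75%). All 73 had the same sign with all libraries, and 62 of them had there an unadjusted p under 0.05. Both fits share 10 libraries, so this is a description. The left-out library was singled out by its nearness to Clean_TN, so adjusted p without it are no independent support either. Leaving out any of the other 10 libraries gave 0 calls, except for 1 call without Clean_VM replicate 1.

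**Figure D1:**
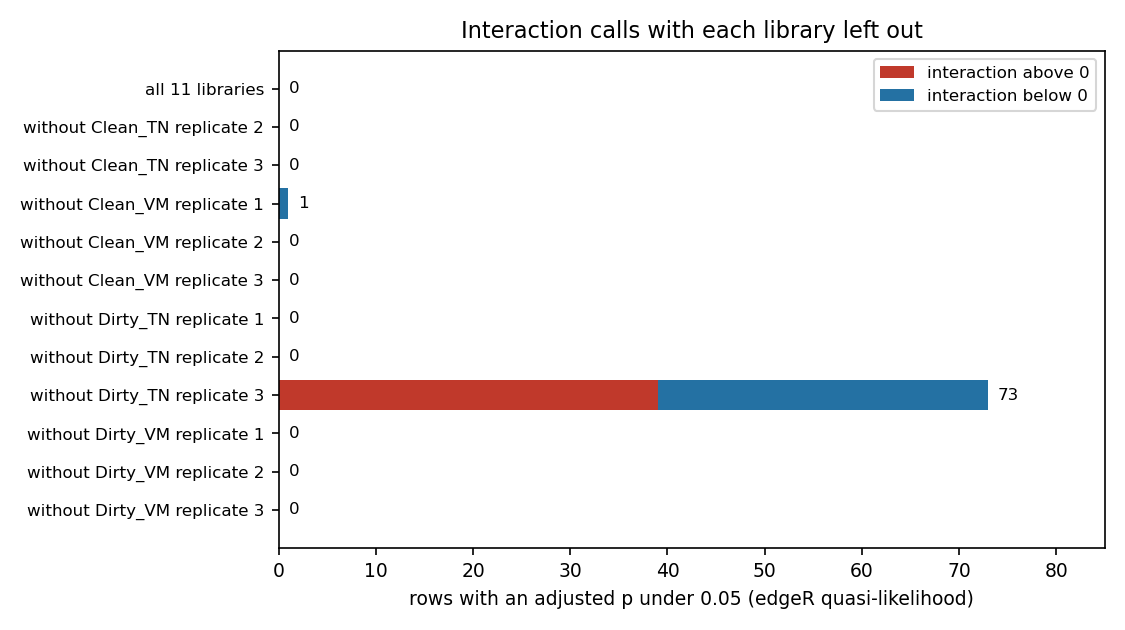
Number of rows with an adjusted p under 0.05 for the interaction (horizontal axis) with all 11 libraries and with each library left out (vertical axis), by edgeR's quasi-likelihood test. The bar without Dirty_TN replicate 3 reaches 73 rows, 39 with an interaction above 0 and 34 below 0, and the other bars stand at 0 or 1.

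The precision set by these libraries was a median standard error (SE) of 0.56 on the log2 scale over all rows and 0.36 over the 263 rows at 10 CPM or more. The median interaction of all rows was -0.05. Scaling by library totals alone moved that median to 0.24 and the rows at an unadjusted p under 0.05 to 57 positive and 31 negative, so directions are read relative to this shift, and the 24 listed rows kept their directions under it. Within the 5 libraries under 5000000 counts and within the 6 deeper ones the 24 rows kept their signs. They were chosen on these same libraries, so that is a description.

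The rows with small p had a common form. Of the 38 rows with a positive interaction, 37 had Dirty_TN below Clean_TN and Dirty_VM above Clean_VM, and of the 55 with a negative interaction, 54 had Dirty_TN above Clean_TN and Dirty_VM below Clean_VM. Opposite changes between environments in the 2 subsets were found in 333 of all 545 rows (61.1%). The sign of the VM minus TN difference itself was opposite in clean and dirty mice in 25 of the 38 and 34 of the 55, against 193 of all rows (35.4%). Since the rows were chosen by the same contrast, these counts are descriptions.

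**Figure D2:**
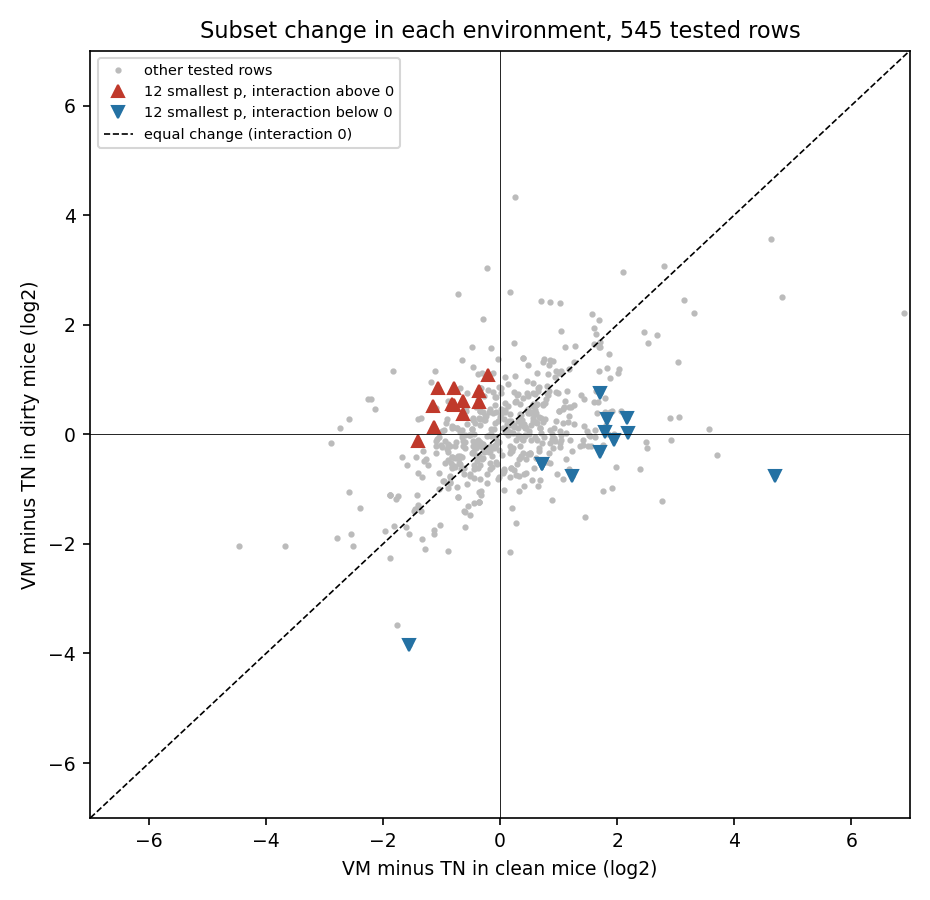
VM minus TN log2 difference in clean mice (horizontal axis) against that in dirty mice (vertical axis) for the 545 tested rows, with the 12 rows of smallest p in each direction as triangles and the line of equal differences dashed. The upward triangles all lie left of 0 and the downward ones right of 0 with 1 exception; miR-151-5p is the triangle farthest right (4.70 in clean, -0.75 in dirty mice), and miR-181a-2-3p the one at the bottom (-1.56 and -3.84).

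The negative rows included miRNAs tied to T cell activation and survival, whose levels separated VM from TN libraries in clean mice and overlapped between them in dirty mice. miR-148a-3p, which is induced by T-bet and Twist1 in T helper cells and represses the death gene Bim, stood at 593 and 674 CPM in Clean_TN and at 1790, 2928 and 2620 in Clean_VM. It stood at 1738, 1585 and 750 in Dirty_TN replicates 1 to 3 and at 1130, 1380 and 1280 in Dirty_VM. The clean groups did not overlap, and the 3 Dirty_VM libraries lay between the lowest and the next Dirty_TN library. The log2 interaction was -2.05 ± 0.43 (SE, adjusted p = 0.0935), with a 95% interval from -2.98 to -1.13, and -2.17 ± 0.30 without Dirty_TN replicate 3 (adjusted p = 0.00115). Its hairpin lies at chr6:51269812-51269910 on the minus strand (GRCm38, GENCODE release M21), in no gene annotated on that strand.

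The cluster of miR-183, miR-96 and miR-182 on chromosome 6 showed the same pattern for 2 of its 3 tested members. miR-182-5p, which is induced by interleukin 2 signalling and represses Foxo1, stood at 179 and 171 CPM in Clean_TN, 616, 568 and 633 in Clean_VM, 726, 395 and 267 in Dirty_TN, and 367, 535 and 523 in Dirty_VM. miR-183-5p stood at 70.6 and 69.3, at 321, 300 and 336, at 372, 226 and 104, and at 181.8, 311 and 218 in the same groups. For both, Clean_TN lay below every other library, and the dirty groups overlapped. Interactions were -1.75 ± 0.45 for miR-182-5p (adjusted p = 0.0952) and -2.17 ± 0.54 for miR-183-5p (adjusted p = 0.095), and without Dirty_TN replicate 3 both passed, at -1.85 ± 0.34 (adjusted p = 0.00281) and -2.35 ± 0.34 (adjusted p = 0.00115). miR-96-5p, between them in the cluster, had mean levels in TN and VM cells of 6.90 and 13.5 CPM in clean and 8.47 and 18.8 CPM in dirty mice, and an interaction of 0.19 ± 0.34 (adjusted p = 0.871). The hairpins mir-182 and mir-183 lie at chr6:30165918-30165992 and chr6:30169668-30169737 on the minus strand.

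Both arms of mir-151, a hairpin in an intron of Ptk2 (focal adhesion kinase) at chr15:73254815-73254882, had negative interactions. miR-151-5p stood at 14.9 and 13.9 CPM in Clean_TN and at 362, 445 and 316 in Clean_VM, and it ranged from 10.3 to 147 in Dirty_TN and from 17.9 to 74.0 in Dirty_VM. Dirty_TN replicate 3, at 10.3 CPM, was its lowest library, against 79.8 and 147 in the other Dirty_TN libraries. Its interaction, -5.45 ± 1.31, was the most negative of the 24 rows (adjusted p = 0.102), with a 95% interval from -8.44 to -2.46, and -5.82 ± 0.68 without that library (adjusted p = 0.00115). miR-151-3p stood at 224 and 280 CPM in Clean_TN, 880, 1225 and 1297 in Clean_VM, 402, 410 and 180 in Dirty_TN, and 293, 500 and 427 in Dirty_VM. Every Clean_VM library was above all others for both arms. The interaction of miR-151-3p was -1.87 ± 0.46 (adjusted p = 0.095), and -2.0004 ± 0.34 without Dirty_TN replicate 3 (adjusted p = 0.00187).

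**Figure D3:**
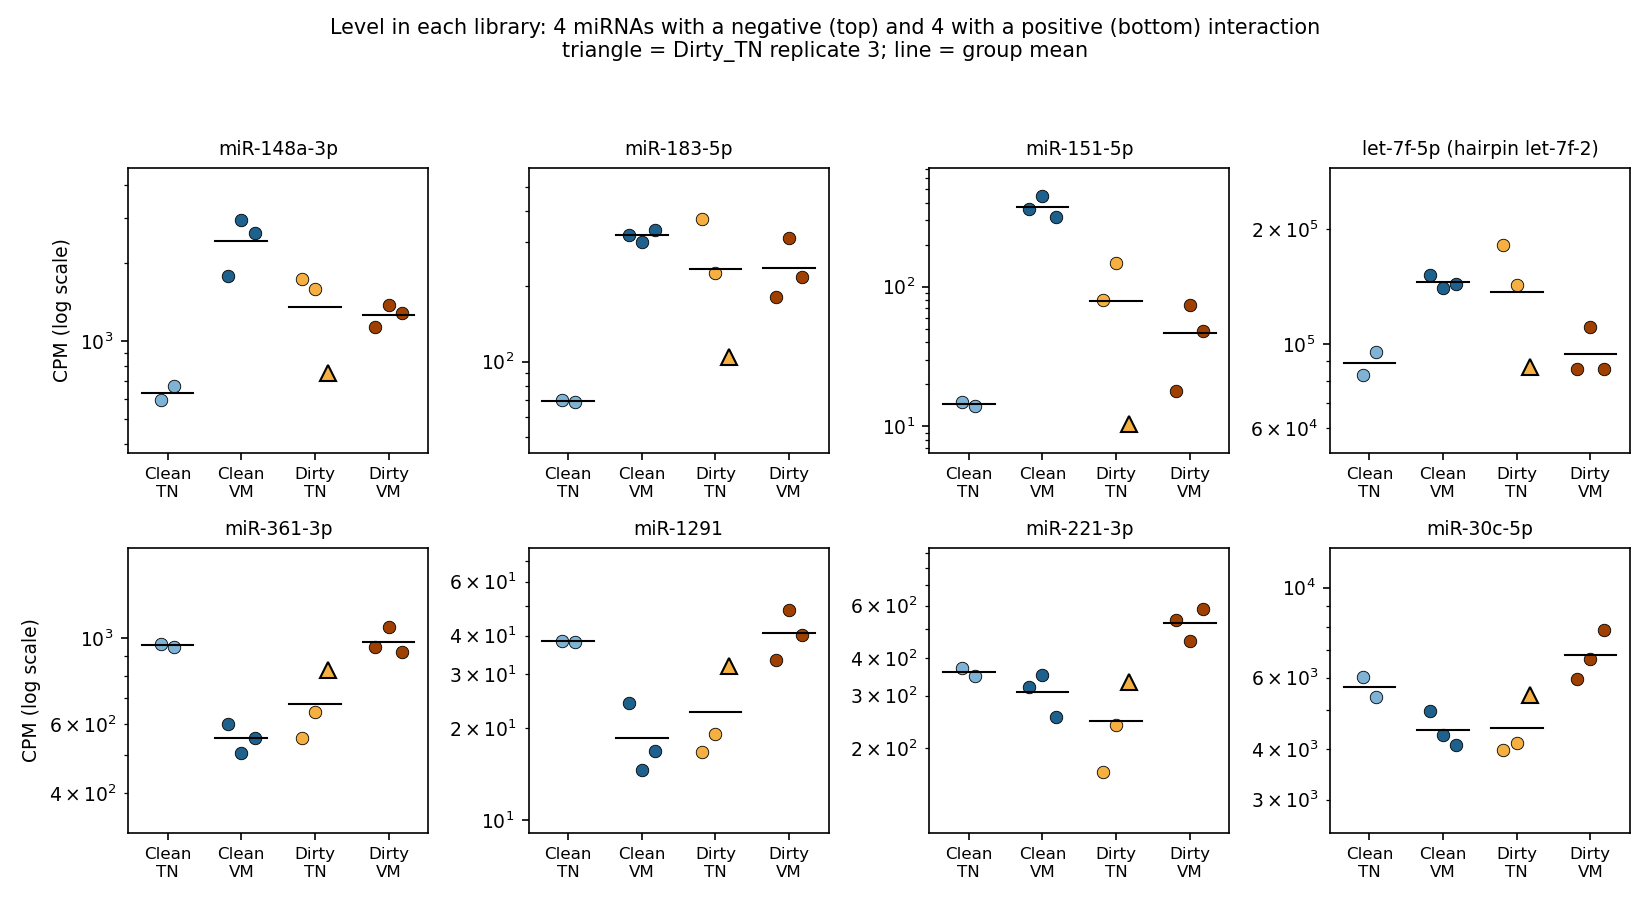
Level in CPM (log scale, vertical axis) of 8 miRNAs in each library, by group (horizontal axis), with the group mean as a line and Dirty_TN replicate 3 as a triangle. The top row (miR-148a-3p, miR-183-5p, miR-151-5p, let-7f-5p) has Clean_VM above Clean_TN and overlapping dirty groups; the bottom row (miR-361-3p, miR-1291, miR-221-3p, miR-30c-5p) has Dirty_VM above Dirty_TN, and the triangle lies on the side of Clean_TN in each panel.

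let-7f-5p, 1 of the most abundant miRNAs of these cells, was on the list with both of its rows. The row from the hairpin let-7f-2, in an intron of Huwe1 on the X chromosome, held 82846 and 95207 CPM in Clean_TN, 151940, 140270 and 144120 in Clean_VM, 181770, 142560 and 87152 in Dirty_TN, and 85766, 111120 and 86025 in Dirty_VM. Clean_VM and 2 of the Dirty_TN libraries thus stood high, and Clean_TN, Dirty_VM and Dirty_TN replicate 3 low. Its interaction was -1.25 ± 0.34 (adjusted p = 0.102), and -1.31 ± 0.21 without Dirty_TN replicate 3 (adjusted p = 0.00118). The row from let-7f-1 on chromosome 13, with the same mature sequence, gave -1.26 ± 0.34 and -1.31 ± 0.21.

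The let-7 family, which in CD8+ T cells represses Myc and Eomes, had 10 tested members, of which 8 lay below 0 and 2 above, also under library totals, with a median of -0.77 (median of all rows -0.05). An unadjusted p under 0.05 was found for 4, all negative (10.1% of all rows had such a p in that direction): let-7f-5p, let-7b-5p at -1.03 ± 0.39, let-7a-5p at -0.84 ± 0.35 and let-7c-5p at -0.80 ± 0.34. The same 4 passed without Dirty_TN replicate 3, where 6.75% of all rows passed in that direction and the family median was -0.83 (adjusted p from 0.00118 for let-7f-5p to 0.0213 for let-7c-5p). let-7g-5p, the most abundant single row at 151660 ± 2522 CPM in TN cells (SD, n = 2) and 133220 ± 11691 in VM cells (n = 3) of clean mice, and at 162890 ± 28454 and 162310 ± 8876 in those of dirty mice (n = 3 each), had an interaction of 0.18 ± 0.24. let-7i-5p stood between, at -0.43 ± 0.27. These members share the seed and differ after it, in the lines below:
let-7f-5p: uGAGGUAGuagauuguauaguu
let-7a-5p: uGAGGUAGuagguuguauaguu
let-7c-5p: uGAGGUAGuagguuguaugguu
let-7b-5p: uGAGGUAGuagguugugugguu
let-7i-5p: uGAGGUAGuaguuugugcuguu
let-7g-5p: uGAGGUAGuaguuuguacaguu
Over all 11 tested miRNAs with the seed GAGGUAG, which include miR-1961, the interaction ran from -1.25 to 0.18, and 9 lay below 0 (8 under library totals).

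Of 8 tested let-7 and miR-98 hairpins with both arms, 7 had the 3p arm above 0 and the 5p arm below, under library totals and without Dirty_TN replicate 3 too, and let-7d had the reverse, with its 3p arm, the most abundant of these 3p arms at a mean of 3366 CPM, at -0.58 ± 0.49 and its 5p arm at 0.02. let-7f-2-3p, from the same hairpin as a let-7f-5p row, stood at 28.4 and 25.9 CPM in Clean_TN, 16.9, 9.65 and 10.6 in Clean_VM, 10.02, 14.7 and 26.2 in Dirty_TN, and 29.5, 22.2 and 22.0 in Dirty_VM. The clean groups did not overlap, and Dirty_TN replicate 3 was the one Dirty_TN library above any Dirty_VM library. Its interaction was 1.67 ± 0.50 (adjusted p = 0.126), and 2.34 ± 0.44 without that library (adjusted p = 0.00334). The 5 tested miRNAs with the seed UAUACAA, the 3p arms of let-7b, let-7f-1, miR-98, let-7a-1 and let-7c-2 (the last pair with 1 mature sequence, so sharing reads), all lay above 0, from 0.08 to 0.77. They also lay above the median of all rows, under library totals and without Dirty_TN replicate 3 too. For let-7a-1 the arms were at -0.84 ± 0.35 (5p) and 0.77 ± 0.30 (3p, adjusted p = 0.233), and without Dirty_TN replicate 3 at -0.91 ± 0.22 (adjusted p = 0.0128) and 0.91 ± 0.29 (adjusted p = 0.0496).

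Arms were then compared over all hairpins, let-7 and miR-98 included, and the share on the same side of 0 depended on the scaling. Of 61 hairpins with both arms at 10 CPM or more, 18 had arms on the same side of 0 (29.5%), and in 30 the arms differed by more than 1 on the log2 scale. None of the 18 was a let-7 or miR-98 hairpin, so the let-7 hairpins described above enter these counts again. Under library totals 30 of 61 (49.2%) lay on the same side and 29 differed by more than 1, and relative to the median of all rows 20 hairpins had both arms on the same side with TMM scaling and 18 with library totals. Without Dirty_TN replicate 3 the arms lay on the same side of 0 in 23 hairpins and differed by more than 1 in 39. Both arms passed there in 8 hairpins, 2 of them with the same sign. Across the 61 hairpins Pearson's r between the arms was 0.09 and Spearman's rho -0.20, as a description, since hairpins share the 11 libraries and are not independent.

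**Figure D4:**
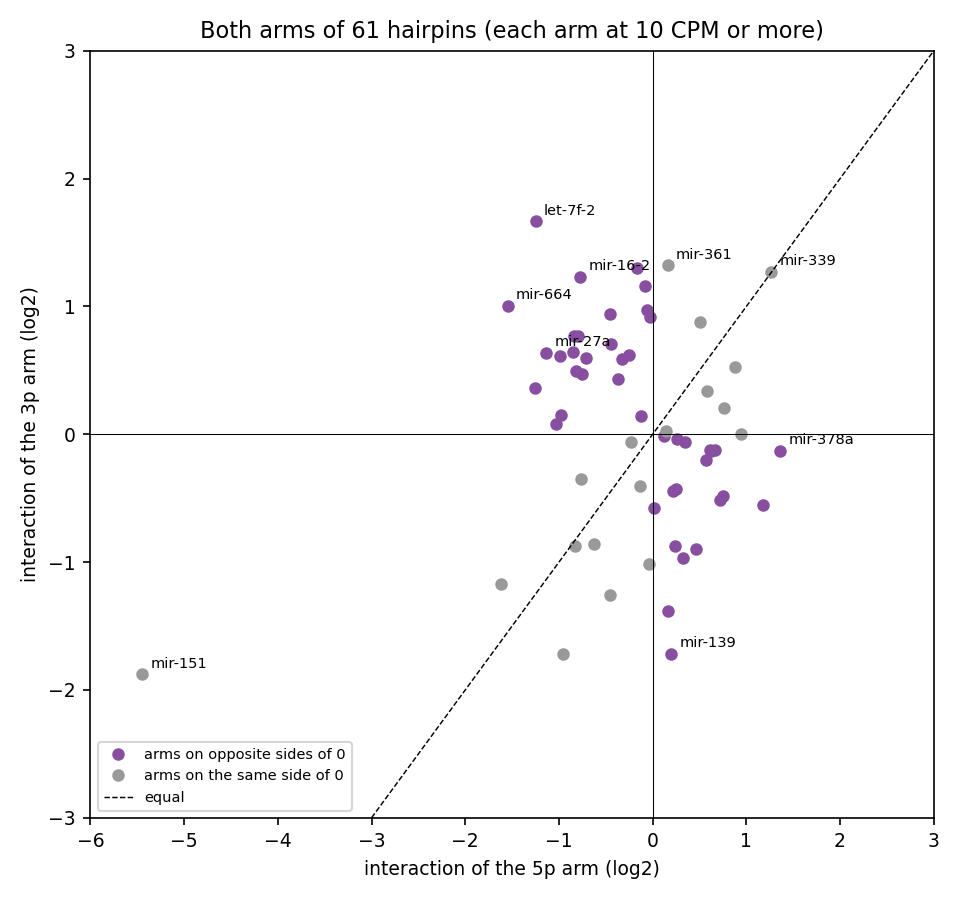
Interaction of the 5p arm (horizontal axis, log2) against that of the 3p arm (vertical axis, log2) for the 61 hairpins with both arms at 10 CPM or more; purple points have arms on opposite sides of 0, grey points on the same side, and the dashed line marks equal values. There are 43 purple and 18 grey points; let-7f-2 and mir-664 lie at the upper left, mir-339 on the diagonal at the upper right, and mir-151 at the lower left.

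miR-664 and miR-16 gave further hairpins with arms apart, but miR-16-5p has 1 mature sequence from mir-16-1 and mir-16-2, whose rows share reads. miR-664-5p stood at 13.1 and 10.5 CPM in Clean_TN, 34.1, 38.2 and 54.6 in Clean_VM, 24.03, 18.5 and 14.9 in Dirty_TN, and 21.1, 22.2 and 26.1 in Dirty_VM. Its interaction was -1.55 ± 0.39 (adjusted p = 0.0952), and that of miR-664-3p was 1.01 ± 0.48 (adjusted p = 0.302), with -1.53 ± 0.39 (adjusted p = 0.0193) and 1.70 ± 0.38 (adjusted p = 0.0105) without Dirty_TN replicate 3. The hairpin lies in an intron of Rab3gap2. At mir-16-2, in an intron of Smc4, miR-16-2-3p had 1.23 ± 0.41 (adjusted p = 0.166) and miR-16-5p -0.77 ± 0.34 (adjusted p = 0.271). Without Dirty_TN replicate 3 the 3p arm passed, at 1.63 ± 0.42 (adjusted p = 0.0193), and the 5p arm did not, at -0.75 ± 0.29 (adjusted p = 0.0987). miR-15b-3p, from the neighbouring hairpin, had 1.16 ± 0.33 (adjusted p = 0.11), and 1.43 ± 0.33 without that library (adjusted p = 0.012). Its other arm, miR-15b-5p, had -0.08 ± 0.29, and without that library 0.19 ± 0.29, on the same side of 0 as the 3p arm. At mir-16-1, the other source of miR-16-5p, both arms lay below 0, at -0.76 ± 0.34 (5p) and -0.35 ± 0.40 (3p).

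The 5p arms of the miR-15/16 family, which repress Bcl2 and cyclins, had 6 tested members with a median of -0.68, or -0.71 over the 5 tested without Dirty_TN replicate 3, and 5 of the 6 lay below 0 (4 under library totals). miR-15a-5p, from an intron of Dleu2 on chromosome 14, stood at 24.5 and 23.5 CPM in Clean_TN, 93.9, 85.4 and 56.4 in Clean_VM, 38.0, 63.5 and 23.4 in Dirty_TN, and 28.9, 33.3 and 36.6 in Dirty_VM. The dirty groups overlapped, and Dirty_TN replicate 3 was the lowest library of all. Its interaction was -2.03 ± 0.49 (adjusted p = 0.095), and -2.14 ± 0.39 without that library (adjusted p = 0.00281). miR-16-5p of the same cluster (row of mir-16-1) had -0.76 ± 0.34. Among the 3 tested members of the miR-148 family with miR-152, which share the seed CAGUGCA, miR-148a-3p stood at -2.05 as given above, and miR-148b-3p at -0.13 ± 0.29 with mean levels in TN and VM cells of 877 and 1274 CPM in clean and 885 and 1174 CPM in dirty mice. The sign of miR-148b-3p turned under library totals (0.16).

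The remaining negative rows differed in form. miR-181a-2-3p, the minor arm of a hairpin whose 5p arm tunes T cell receptor sensitivity, was lower in VM than in TN cells in both environments. It stood at 39.3 and 37.0 CPM in Clean_TN, 8.05, 20.1 and 10.3 in Clean_VM, 107, 92.3 and 33.8 in Dirty_TN, and 4.46, 6.57 and 5.29 in Dirty_VM. Neither environment had overlapping groups, and the difference was -1.56 in clean and -3.84 in dirty mice, an interaction of -2.29 ± 0.63 (adjusted p = 0.102), or -2.48 ± 0.48 without Dirty_TN replicate 3 (adjusted p = 0.00401). miR-181a-5p, the major product, had -0.26 ± 0.30. miR-10a-5p, known from regulatory T cells, was higher in VM cells in both environments, at 28.0 and 31.9 CPM against 84.0, 108 and 98.7 in clean and at 47.0, 42.1 and 42.1 against 77.7, 73.1 and 69.8 in dirty mice. Its interaction was -0.95 ± 0.27 (adjusted p = 0.114), and it was the 1 row of the 24 that did not pass without Dirty_TN replicate 3 (-0.80 ± 0.29, adjusted p = 0.0961). miR-1943-5p, from an intron of Tmem184b, stood at 10.02 and 9.64 CPM in Clean_TN and at 23.1, 17.2 and 28.9 in Clean_VM. It stood at 25.7, 12.98 and 12.03 in Dirty_TN and at 9.22, 9.45 and 11.2 in Dirty_VM. All VM libraries lay above all TN libraries in clean mice, and all below in dirty mice. Its interaction was -1.98 ± 0.49 (adjusted p = 0.095), or -2.001 ± 0.47 without Dirty_TN replicate 3 (adjusted p = 0.012).

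Among the positive rows the order of the subsets was reversed between environments for 5 of the 12 in every library: miR-361-3p, miR-1291, miR-30c-5p, miR-15b-3p and miR-186-5p. miR-361-3p, from an intron of Chm at chrX:113074824-113074893, stood at 965 and 946 CPM in Clean_TN, 601, 505 and 553 in Clean_VM, 553, 646 and 825 in Dirty_TN, and 946, 1066 and 921 in Dirty_VM. All TN libraries lay above all VM libraries in clean mice, and all below in dirty mice. The interaction was 1.32 ± 0.27 (adjusted p = 0.0935), with a 95% interval from 0.73 to 1.91, and 1.68 ± 0.24 without Dirty_TN replicate 3 (adjusted p = 0.00115). Its other arm, miR-361-5p, had 0.16 ± 0.31, with all 11 libraries between 410 and 688 CPM. miR-1291, from an intron of Kansl2, stood at 38.4 and 38.3 CPM in Clean_TN, 24.2, 14.5 and 16.9 in Clean_VM, 16.7, 19.0 and 31.9 in Dirty_TN, and 33.3, 48.5 and 40.2 in Dirty_VM. It had the largest positive value of the 24 rows, 1.90 ± 0.42 (adjusted p = 0.095), and 2.43 ± 0.37 without that library (adjusted p = 0.00118).

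miR-30c-5p was the most abundant of the 12 listed positive rows. It stood at 6003 and 5384 CPM in Clean_TN, 4953, 4330 and 4092 in Clean_VM, 3980, 4129 and 5450 in Dirty_TN, and 5956, 6663 and 7842 in Dirty_VM, with no overlap in either environment. Its interaction was 0.95 ± 0.27 (adjusted p = 0.11), or 1.29 ± 0.22 without Dirty_TN replicate 3 (adjusted p = 0.00187). In the miR-30 family, which represses Prdm1 (Blimp-1), 3 of 5 tested members lay above 0 and above the median of all rows, also under library totals. The family median was 0.24, or 0.53 without Dirty_TN replicate 3. miR-30b-5p had 1.18 ± 0.48 (adjusted p = 0.24) and 1.81 ± 0.41 without that library (adjusted p = 0.012). miR-30a-5p lay at -0.62 and miR-30e-5p at 0.24, both with the seed of miR-30c-5p.

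**Figure D5:**
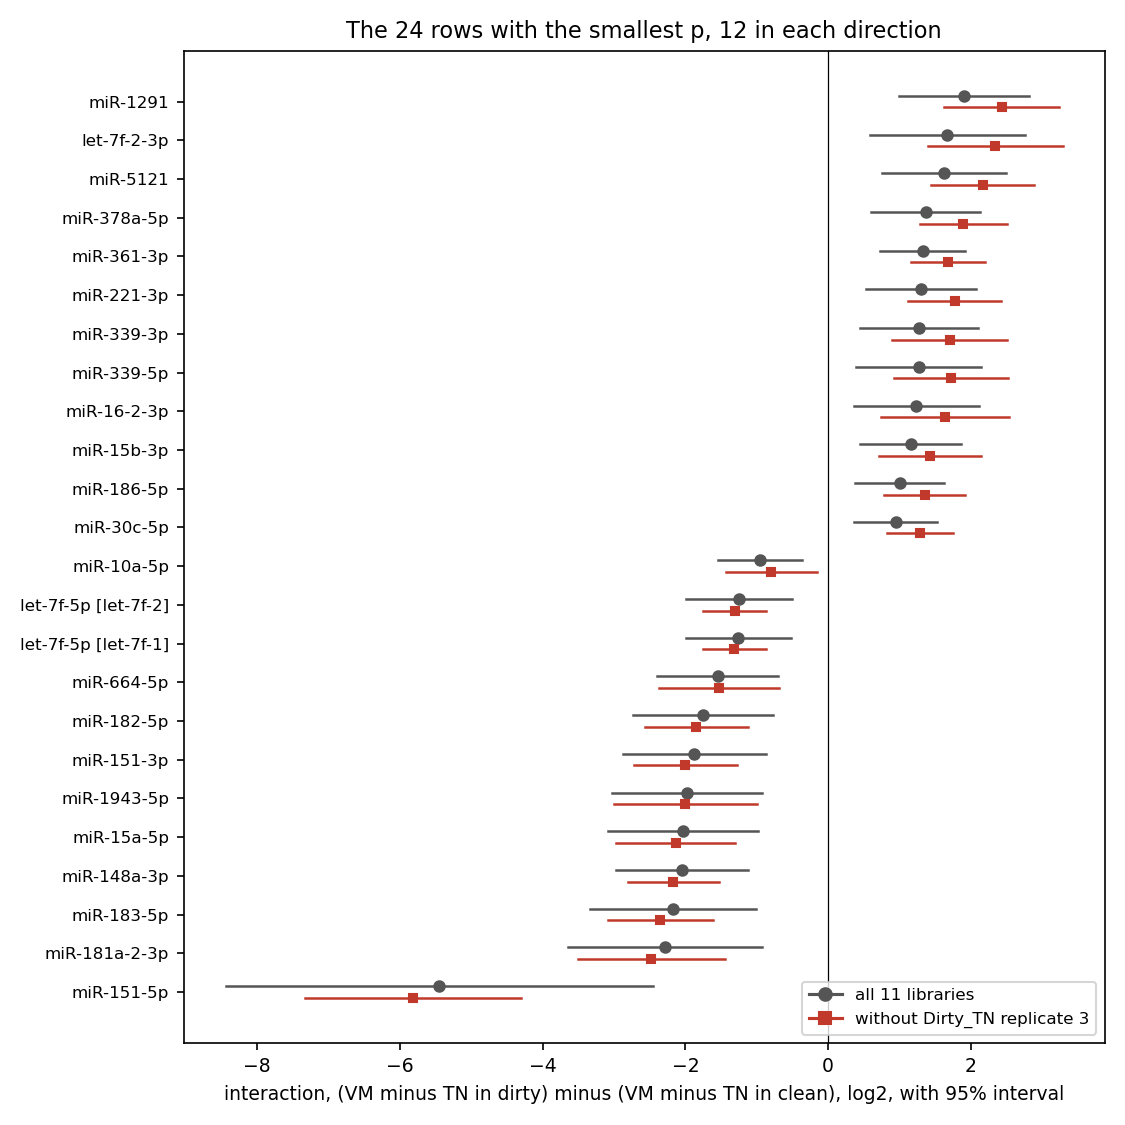
Log2 interaction with its 95% interval (horizontal axis) for the 24 rows (vertical axis), with all 11 libraries (grey circles) and without Dirty_TN replicate 3 (red squares). Positive values run from 0.95 to 1.90 and negative ones from -5.45 to -0.95 with all libraries. Every interval lies to one side of 0, which with all libraries follows from choosing the rows by small p. The intervals are not adjusted for the number of rows tested. The square lies farther from 0 than the circle in all 12 positive rows, and in the negative rows except miR-664-5p and miR-10a-5p.

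miR-221-3p, which represses the cell cycle inhibitor Cdkn1b, stood apart from its cluster neighbour miR-222-3p, with the same seed. miR-221-3p was at 370 and 348 CPM in Clean_TN, 321, 352 and 255 in Clean_VM, 167, 240 and 334 in Dirty_TN, and 536, 456 and 586 in Dirty_VM. The clean groups overlapped, and Dirty_VM lay above every other library. Its interaction was 1.30 ± 0.36 (adjusted p = 0.102), or 1.77 ± 0.30 without Dirty_TN replicate 3 (adjusted p = 0.00194). miR-222-3p had mean levels in TN and VM cells of 159 and 252 CPM in clean and 148 and 270 CPM in dirty mice, and an interaction of 0.20 ± 0.26, or 0.33 ± 0.25 without that library. The difference between these miRNAs was not tested.

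miR-5121, in an exon of Rpl13a, stood at 206 and 208 CPM in Clean_TN, 111 to 126 in Clean_VM, 55.9, 90.6 and 133 in Dirty_TN, and 133 to 197 in Dirty_VM, with an interaction of 1.63 ± 0.40 (adjusted p = 0.095). miR-378a-5p stood at 152.3 and 139 CPM in Clean_TN, 75.7 to 87.8 in Clean_VM, 65.0, 78.5 and 128 in Dirty_TN, and 118 to 144 in Dirty_VM, with an interaction of 1.36 ± 0.35 (adjusted p = 0.0952). In both, the clean groups did not overlap and the dirty groups met through Dirty_TN replicate 3. Without it the values were 2.16 ± 0.33 and 1.89 ± 0.28 (adjusted p = 0.00118 for both). miR-378a-3p, the abundant arm, had -0.13 ± 0.36. Both arms of mir-339 lay at 1.27 (SE 0.38 for 3p and 0.41 for 5p, adjusted p = 0.126 and 0.152) and passed without that library, at 1.70 ± 0.38 and 1.72 ± 0.37. miR-186-5p, from an intron of Zranb2, had 1.00 ± 0.29 (adjusted p = 0.116), or 1.35 ± 0.27 without it (adjusted p = 0.00446).

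In all 24 rows the VM minus TN differences of the dirty libraries did not overlap with those of the clean libraries. That was so in 73 of all rows (13.4%), 40 positive (7.34%) and 33 negative (6.06%). The 24 were chosen by the same contrast, so this adds no independent evidence. Of their 10 other arms not on the list, miR-16-5p and miR-664-3p were given above, let-7f-1-3p had 0.37 ± 0.30, and the remaining 7, those with the largest p, lay between -0.69 and 0.23.

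Other families of T cells were read from 16 lists of miRNA families, clusters and T cell miRNAs, with no member passing when all 11 libraries were used. In the miR-17-92 cluster and its paralogs, which repress Bim and favour proliferation, 8 of 13 tested members lay above 0 (9 under library totals) with a median of 0.35. Above the median of all rows lay 8 under either scaling. miR-20a-5p had 1.02 ± 0.43, miR-20b-5p 0.97 ± 0.37 and miR-93-5p 0.76 ± 0.29 (adjusted p = 0.244, 0.228 and 0.228). Without Dirty_TN replicate 3, 5 of the 13 passed, all positive (7.74% of all rows passed in that direction), and the median was 0.57. They were miR-17-5p, miR-20a-5p, miR-106a-5p, miR-20b-5p and miR-93-5p. All 5 have the seed AAAGUGC, and the sixth tested miRNA with it, miR-106b-5p, lay at -0.13 with all libraries. Under library totals and without that library miR-106b-5p lay above 0 but below the median of all rows. The difference between seeds was not tested. The sequences are shown because the passing members share 1 seed:
miR-17-5p: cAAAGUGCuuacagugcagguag
miR-20a-5p: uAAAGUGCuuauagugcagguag
miR-106a-5p: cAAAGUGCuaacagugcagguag
miR-20b-5p: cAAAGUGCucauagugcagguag
miR-93-5p: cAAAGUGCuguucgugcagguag
miR-106b-5p: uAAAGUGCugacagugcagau
Members with other seeds lay on both sides of 0 and none of them passed: miR-92a-3p at -0.40 ± 0.26, miR-25-3p at -0.44, miR-18a-5p at -0.92, miR-18b-5p at -1.53, miR-19a-3p at 0.35, miR-19b-3p at 0.22 and miR-363-3p at 0.47 (0.69 without Dirty_TN replicate 3, adjusted p = 0.111).

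The miR-23/27/24 clusters, which restrain effector T cell responses, had all 5 listed 3p arms above 0 under each scaling and without Dirty_TN replicate 3, with a median of 0.41, or 0.77 without that library. The 5 arms also lay above the median of all rows in each of these fits. All 6 tested 5p arms of these hairpins lay below 0, from -1.14 to -0.12 (5 of 6 under library totals). miR-27b-3p stood at 13268 ± 174 CPM in TN cells (SD, n = 2) and 8481 ± 656 in VM cells (n = 3) of clean mice, and at 12724 ± 780 and 12298 ± 1227 in those of dirty mice (n = 3 each), so that Clean_VM was the low group. Its interaction was 0.60 ± 0.22 (adjusted p = 0.227), and that of miR-27a-3p was 0.64 ± 0.25 (adjusted p = 0.233). Without Dirty_TN replicate 3 both passed, at 0.83 ± 0.21 (adjusted p = 0.0171) and 0.87 ± 0.25 (adjusted p = 0.0327). miR-27a-5p, the other arm of mir-27a, had -1.14 ± 0.36 (adjusted p = 0.143), or -1.15 ± 0.32 without that library (adjusted p = 0.0273).

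Of 14 tested T cell activation and memory miRNAs, 8 lay below 0 and 6 above, with a median of -0.45. The median was -0.17 under library totals, and also -0.17 without Dirty_TN replicate 3, where 7 lay on each side. Those with an unadjusted p under 0.05 were miR-182-5p, miR-183-5p and miR-155-5p below 0 and miR-221-3p above. miR-155-5p, which represses Socs1 and is needed for effector CD8+ T cells, stood at 1195 ± 43.0 CPM in TN cells (SD, n = 2) and 2308 ± 568 in VM cells (n = 3) of clean mice, and at 1490 ± 146 and 1774 ± 221 in those of dirty mice (n = 3 each). Its interaction of -0.70 ± 0.30 (adjusted p = 0.256) did not pass without Dirty_TN replicate 3 either (-0.54 ± 0.29, adjusted p = 0.255). miR-21a-5p, which represses Pdcd4, stood at 8498 and 10227 CPM in Clean_TN, 26507 to 32735 in Clean_VM, 11907, 11901 and 14751 in Dirty_TN, and 49164 to 59118 in Dirty_VM. VM cells had more in both environments, and the interaction was 0.40 ± 0.25 (adjusted p = 0.412), or 0.70 ± 0.22 without that library (adjusted p = 0.0474).

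Of 9 tested miRNAs of resting T cells, 5 lay above 0 (6 under library totals) with a median of 0.20. The 4 below 0 were miR-342-5p at -0.98 ± 0.49, miR-128-3p at -0.89 ± 0.42, miR-101a-3p at -0.33 ± 0.46 and miR-26b-5p at -0.03 ± 0.26. miR-26a-5p, which represses Ezh2, had 0.58 ± 0.21 (adjusted p = 0.203) and miR-191-5p 0.57 ± 0.23 (adjusted p = 0.24). miR-150-5p stood at 127380 and 134280 CPM in Clean_TN, 77261, 103730 and 79035 in Clean_VM, 66249, 90255 and 129820 in Dirty_TN, and 86954, 78904 and 94645 in Dirty_VM. Dirty_TN replicate 3 was in the range of Clean_TN, and the interaction of 0.46 ± 0.33 (adjusted p = 0.484) was 0.93 ± 0.25 without it (adjusted p = 0.022). With miR-26a-5p, miR-191-5p and miR-342-3p it was 1 of 4 members that passed without that library, all positive (7.74% of all rows did), and the list median was then 0.38.

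Medians of further T cell lists lay close to that of all rows when all 11 libraries were used. They were -0.15 for the miR-181 family, -0.11 for the miR-29 family, -0.14 for the miR-99, miR-100 and miR-125 group, -0.08 for the Dlk1-Dio3 cluster and -0.04 for the Sfmbt2 intron cluster of rodent miRNAs. Under library totals each turned positive (0.12 to 0.21) but lay below the median of all rows, which had shifted too. Without Dirty_TN replicate 3 they were -0.12, 0.11, 0.26, 0.61 and 0.28, so that all but the first turned positive, against a median of 0.12 for all rows. The lists of miR-181, miR-29, and miR-99 with miR-125 had no member with an unadjusted p under 0.05. Of 13 tested Dlk1-Dio3 miRNAs 1 had such a p, miR-379-5p at -1.58 ± 0.71, and another, miR-495-3p, had 1.13 ± 0.83 and passed without Dirty_TN replicate 3, at 2.42 ± 0.69 (adjusted p = 0.0309). Of 46 tested miRNAs of the Sfmbt2 list 2 had an unadjusted p under 0.05, miR-466n-3p at -2.33 ± 0.84 and miR-466d-3p at -0.72 ± 0.33. That list was drawn up by the names miR-297, miR-466, miR-467 and miR-669, not by position. Some of its members had identical values, such as miR-466b-3p, miR-466c-3p and miR-466p-3p at -0.88, so its members are not all independent. miR-130b-3p had -0.87 ± 0.33 and miR-222-5p -1.95 ± 0.82. Of these, miR-379-5p, miR-466n-3p, miR-466d-3p, miR-130b-3p and miR-222-5p did not pass without Dirty_TN replicate 3.

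Lists of red cell, myeloid, vessel, stromal, epithelial, liver and muscle miRNAs were read for other cells in the sort. Members with an unadjusted p under 0.05 were found in the erythroid list alone, where 2 of 4 tested miRNAs had one. They were miR-486a-5p at -1.49 ± 0.54 (adjusted p = 0.21) and miR-486b-5p at -1.48 ± 0.50 (adjusted p = 0.185). Of all rows 10.1% had such a p in that direction. These rows had close mean levels, 58.4 and 65.4 CPM, and were not shown to be independent. In the same list miR-451a lay at 0.19 ± 0.76 and miR-144-5p at -0.40 ± 1.41. The summed level of the erythroid list was 59.9 to 76.7 CPM in Clean_TN, 129 to 261 in Clean_VM, 68.9 to 147 in Dirty_TN and 122 to 200 in Dirty_VM. Neither miR-486 row passed without Dirty_TN replicate 3, and the erythroid median moved from -0.94 to -0.16. In the same order of groups the stromal list summed to 74.8 to 97.2, 106 to 190, 74.6 to 134 and 101 to 172 CPM, and the endothelial and platelet list to 18.4 to 19.3, 21.7 to 47.7, 15.3 to 29.66 and 29.59 to 53.0 CPM. The epithelial list summed to 2170 to 2312, 2421 to 3278, 2286 to 3183 and 2761 to 3759 CPM, and the hepatocyte and muscle list to 860 to 1088, 1224 to 2755, 929 to 1835 and 1248 to 2489 CPM. All 5 lists were thus higher in Clean_VM than in Clean_TN without overlap and overlapped between the dirty groups. Their part in the negative interactions was not tested. The myeloid list summed to at most 3.61 CPM in any library, and its groups overlapped. No tested member of the lists other than the erythroid one had an unadjusted p under 0.05.

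Base composition was compared over the 202 tested miRNAs at 10 CPM or more with a sequence in the tables. The share of G in the mature sequence and the interaction had a Pearson's r of -0.31 and a Spearman's rho of -0.32, and -0.32 and -0.33 without Dirty_TN replicate 3. The same values were -0.19 and -0.19 for the share of G and C together, and 0.13 and 0.13 for length. These are descriptions across miRNAs that share the 11 libraries, the library kit and, in families, much of their sequence.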

How the data were processed

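Small RNA libraries (NEBNext kit, inserts of about 18 to 35 bp, per the labels' protocols) were made from sorted cells. The authors deposited 1 table of estimated counts per mature miRNA and hairpin, unscaled as deposited, with 88.7% whole values. How the authors made the estimated counts is not stated. The build was mm10 per the submitters' processing notes, and the aligner and counter are not given in the sources used here.

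Estimated counts were rounded. Rows were filtered with filterByExpr, TMM-scaled and fitted as 1 model over 11 libraries in edgeR 4.0.16 (robust glmQLFit, glmQLFTest, R 4.3.3), two-sided, with Benjamini-Hochberg adjustment over 545 rows and a threshold of 0.05. SE is the absolute log2 change over the root of F; log2 changes are fitted. CPM uses TMM-scaled totals. A row was called non-overlapping when every dirty VM minus TN difference of log2 CPM (prior count 2) lay above, or below, every clean one. Tests were run on simulated data first.

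Named rows were the 12 smallest p per direction at a mean of 10 CPM or more, their other arms, list members with p under 0.05 and the 10 most abundant rows. The 5 rows miR-148b-3p, miR-222-3p, miR-96-5p, miR-27a-5p and let-7a-1-3p, and other list members given by value, were named after their values were seen. Members, lists and contrast were chosen with earlier results of these data known. A miRNA on several rows entered a list as its most abundant row. Sequences matched 425 of 524 tested miRNAs, and positions 43 of 47 named hairpins. Alternatives used DESeq2 1.42.0, limma 3.58.1, other scalings, filters, blocks, depth classes and left-out libraries; those built on Dirty_TN replicates 1 and 2 were chosen after seeing the data.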

Additional observations from a re-analysis of the deposited data

How the results depend on the processing

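Calls at an adjusted p under 0.05 depended on the setting. The 24 rows of smallest p kept their direction under all 31 alternatives. They were chosen on these same libraries, so that adds no independent evidence. With all libraries edgeR gave 0 calls, as did DESeq2 size factors, library totals alone, limma-voom, non-robust estimation, rows summed per miRNA, depth class as a term, and the deep libraries only. DESeq2 gave 41 calls, sample quality weights 54, no filter beyond 1 count 30, a filter of 10 CPM in at least 2 libraries 16, and the shallow libraries only 1. Leaving out 1 library gave 0 to 73 calls, 73 without Dirty_TN replicate 3. With Dirty_TN replicates 1 and 2 only, DESeq2 gave 87 calls, limma-voom 75, library totals 67, the 10 CPM filter 74 and the replicate block 48, and with replicate 3 alone for its group there were 0. The cause was not tested.

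Against 93 rows at an unadjusted p under 0.05, sample quality weights gave 150, shallow libraries 48, deep libraries 23, and leaving out 1 library 66 to 139. With Dirty_TN replicates 1 and 2 only, limma-voom gave 150 and library totals 140, and with replicate 3 alone there were 39. The replicate number as a block gave 0 calls and 66 rows at an unadjusted p under 0.05, and a block per environment 0 and 78. Deviations from the group means of libraries with the same number had correlations from -0.55 to 0.42 over 15 pairs, 6 over 0.1. Between TN and VM libraries they were 0.25 and -0.26 in clean mice, and -0.46, 0.24 and 0.42 in dirty mice. With so few libraries per group, these values cannot tell whether the numbers pair the libraries.

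Signs were followed through the alternatives for most named rows, but not for the 7 other arms given as a range, nor for other list members given by value. Among the rows followed, signs turned for miR-379-5p in shallow libraries (0.084) and for miR-148b-3p: 0.16 under library totals, 0.031 in shallow libraries, 0.16, 0.084 and 0.11 without Clean_TN replicate 2, Clean_VM replicate 2 and Dirty_VM replicate 3 (range over all left-out libraries -0.24 to 0.16), and, among fits with fewer Dirty_TN libraries, 0.14 under library totals, 0.014 with the block and 0.19 with replicate 3 alone. Of the arms left out, miR-15b-5p turned to 0.19 and miR-221-5p to 0.017 without Dirty_TN replicate 3. The others tested in that fit kept their sign. Depth limits rows near 1.23 CPM, the highest level that a count of 0 allows in any library.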
